A study of Mus musculus with 12 samples.

Results

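The BCL2 family of apoptosis regulators was followed through the cerebellar tissue of a mouse model of medulloblastoma, a malignant tumor of the cerebellum. The members were 10 genes taken by their symbols, and all 10 were found among the 24091 genes of the expression table: the pro-survival genes *Bcl2*, *Bcl2l1* and *Mcl1*, the effectors *Bax* and *Bak1*, and the BH3-only genes *Bbc3*, *Pmaip1*, *Bcl2l11*, *Bid* and *Hrk*. The 12 samples form 4 groups of 3. Medulloblastomas of *Brca2*Δex3-4; *Trp53*-/- mice (labelled Brca2-mut;Trp53-mut) came from mice GB344, GB359 and GB370, and the cerebellum adjacent to the tumor was taken from the same mice. Control cerebellum free of tumor came from 3 *Brca2*Δex3-4; *Trp53*+/+ mice, namely GB361, GB508 and GB512 (labelled Brca2-mut;Trp53-WT) and from 3 *Brca2*WT; *Trp53*-/- mice, namely GB517, GB519 and GB520 (labelled Brca2-WT;Trp53-mut), and the study describes the controls as age-matched. Exons 3 and 4 of *Brca2* were deleted in the central nervous system by Cre under the human GFAP promoter, so the deletion marks cells of that lineage only, whereas *Trp53* was knocked out in the whole animal. Tumor-bearing mice were taken when tumors or other humane endpoints appeared. No group was wild type for both genes, so every comparison with controls involves at least 1 of the mutations.

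Cells commit to intrinsic apoptosis when the outer mitochondrial membrane becomes permeable and releases cytochrome c, and the BCL2 family governs that step. The effectors BAX and BAK form pores in the membrane, the pro-survival proteins BCL2, BCL-XL (from *Bcl2l1*) and MCL1 hold them and the BH3-only proteins in check, and BH3-only proteins such as BIM (from *Bcl2l11*), BID, PUMA (from *Bbc3*), NOXA (from *Pmaip1*) and HRK relay damage, cytokine or growth factor signals to the family. *Bax*, *Bbc3* and *Pmaip1* are known transcriptional targets of p53, and neural progenitors carry more of this machinery than mature neurons.

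Expression was measured by RNA sequencing of poly(A) RNA and is given in TPM (a relative abundance scaled for transcript length, so that levels of different genes can be compared). Read depth cannot be recovered from TPM and is unknown here, so precision rests on the spread between mice. Between 15088 and 15803 genes per sample reached 1 TPM. A gene was called different between groups when limma on log2(TPM + 1) gave an adjusted p under 0.01, adjusted after Benjamini and Hochberg over every gene tested, and a log2 fold change past 1 in either direction. Because 1 TPM was added before the logarithm, a low gene shows a smaller change on this scale than its TPM ratio. The tissue labels were compared with markers. Summed TPM of 5 granule cell progenitor markers (*Atoh1*, *Barhl1*, *Gli1*, *Sfrp1*, *Ccnd2*) was between 812 and 2141 in tumors and between 38.4 and 46.9 in the 6 controls. The adjacent cerebella of mice GB344 and GB359 carried 561 and 523, and that of mouse GB370 carried 84.0. Cell division markers (*Mki67*, *Top2a*, *Cdk1*, *Ccnb1*, *Aurkb*) summed to between 507.6 and 554 in tumors, to 232, 134 and 13.5 in the adjacent cerebella of mice GB344, GB359 and GB370, and to between 1.60 and 29.2 in controls, where mouse GB512 had the highest value. The libraries labelled as adjacent cerebellum of mice GB344 and GB359 therefore stand apart from that of mouse GB370. For *Bid* and *Bcl2l11*, results are given with and without these libraries. Group means, shares and most other values of the adjacent cerebella include them. Gene-level TPM of *Trp53* and *Brca2* includes transcripts without the deleted exons and does not check the genotype labels.

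In the 6 control cerebella the most abundant member was *Bcl2l1*, at 137 ± 8.82 TPM (SD, n = 6), followed by *Bax* at 105 ± 6.06 and *Mcl1* at 61.5 ± 3.13 TPM. *Bak1* at 17.9 ± 1.98 and *Bbc3* at 15.1 ± 1.98 TPM came next, and their ranges overlapped. The other 5 members lay between 2.56 TPM (*Bid*) and 6.51 TPM (*Bcl2*), and each overlapped its neighbor in the order. In tumors the order differed. *Bax* led at 188 ± 23.7 TPM (SD, n = 3), *Mcl1* was next at 105 ± 6.68 TPM and *Bcl2l1* followed at 89.7 ± 10.1 TPM, with overlapping ranges for the latter pair. *Bid*, the lowest member in controls, stood in the fifth place in tumors at 26.9 ± 2.50 TPM, and *Bcl2* was the lowest at 5.90 ± 0.773 TPM. The adjacent cerebella kept *Bcl2l1*, *Bax* and *Mcl1* in the order of the controls.

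**Figure D1:**
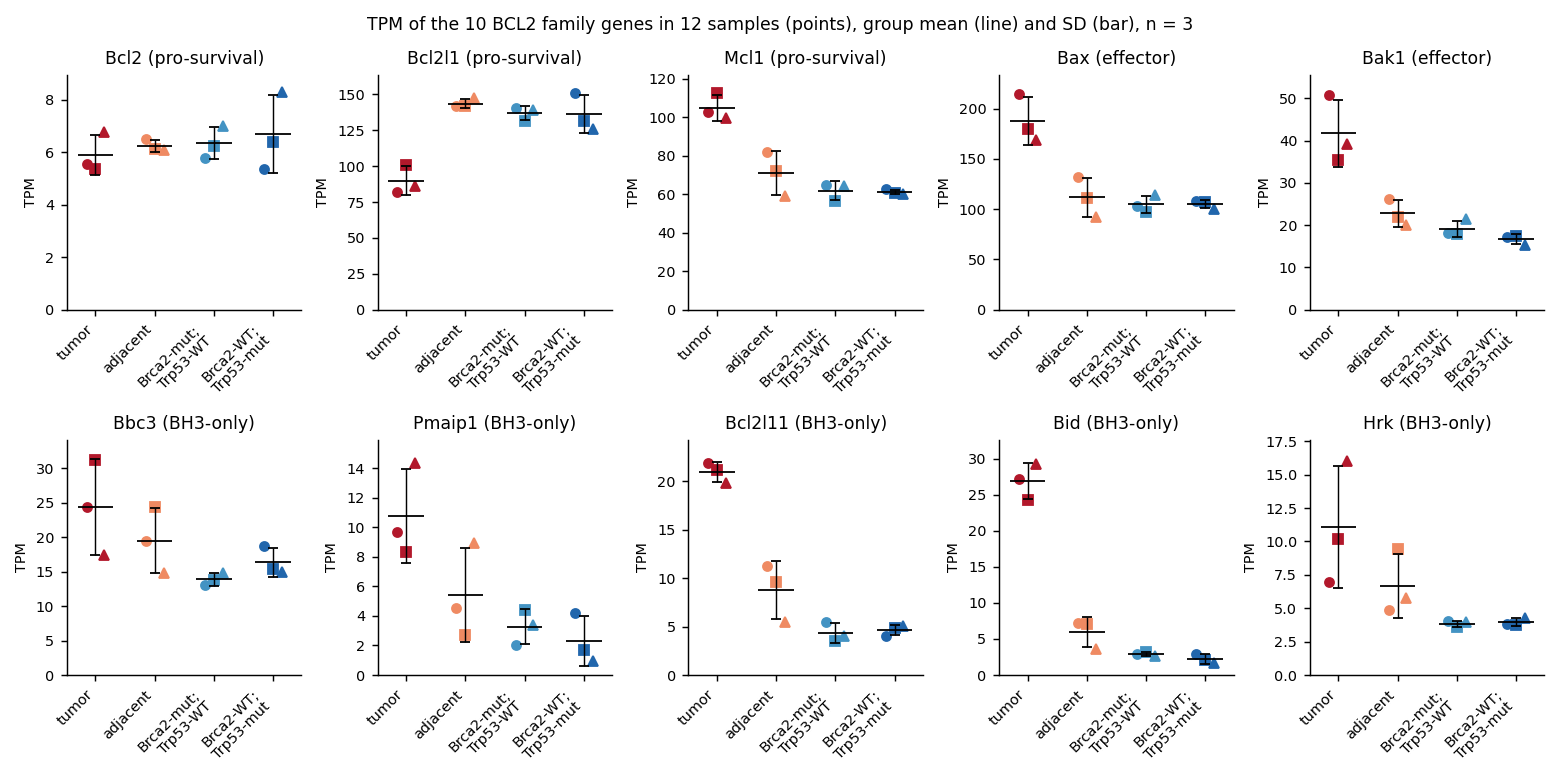
TPM of the 10 BCL2 family genes (y axis, linear, starting at 0 in each panel) in the 4 groups of 3 samples. Points are samples, with the same symbol for the tumor and the adjacent cerebellum of 1 mouse, lines are group means and bars are SD. For *Bid*, *Bcl2l11*, *Bak1*, *Bax* and *Mcl1* every tumor lies above every other sample, and for *Bcl2l1* every tumor lies below them. Tumors and the 6 controls alone did not overlap in 64% of all 16241 tested genes. The share for separation from all other samples was not counted.

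Summed over the 3 pro-survival members, the level was 200.5 ± 16.0 TPM (SD) in the 3 tumors and 205 ± 10.2 TPM (SD) in the 6 controls. The 2 effectors summed to 229.6 ± 31.1 TPM in tumors against 123 ± 7.58 TPM in controls, and the 5 BH3-only members to 94.0 ± 3.57 and 28.8 ± 2.48 TPM. BH3-only transcripts were 18.0% ± 1.48 (SD, n = 3) of the TPM of all 10 members in tumors, 11.5% ± 1.35 (SD, n = 3) in adjacent cerebella and 8.10% ± 0.495 (SD, n = 6) in controls. Pro-survival transcripts were 38.3% ± 3.27 in tumors, 55.1% ± 2.93 in adjacent cerebella and 57.4% ± 0.932 in controls. These sums describe RNA levels and carry no test. They hold the 10 members only and leave out relatives of similar level. Among those, the pro-survival gene *Bcl2l2* had a mean of 29.0 TPM in tumors and 107 TPM in controls. The effector-like gene *Bok* had a mean of 183 TPM in tumors and 19.6 TPM in controls.

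Against the 6 control cerebella, 5 of the 10 members were called, all of them higher in tumors: *Bid*, *Bcl2l11*, *Pmaip1*, *Hrk* and *Bak1*. Among all 16241 genes tested, 14.4% were called higher, 21.5% lower and 35.9% in either direction. The median log2 fold change was 1.0 over the 10 members and −0.11 over all genes. Quantile normalization moved the median of all genes to 0.04, and the same 5 members were called. *Bax*, *Mcl1*, *Bbc3* and *Bcl2l1* had an adjusted p under 0.01 with a fold change under the minimum, and *Bcl2* passed neither threshold. An adjusted p under 0.01 was itself common, with 9917 of the 16241 genes. In whole tissue, fewer cells of a type and less RNA per cell cannot be told apart. Tumors also held less RNA of mature cells: summed TPM of 5 granule neuron markers was between 358 and 882 in tumors and between 2507 and 3220 in controls, and that of 5 Purkinje cell markers was between 49.9 and 266 against between 4263 and 7236. The part of this difference in cell types in the results for the members was not tested.

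*Bcl2l1* (Entrez Gene 12048, mm10 chromosome 2 from 152758732 to 152833803) encodes BCL-XL, the main pro-survival protein of mature neurons. In the order GB344, GB359, GB370 it stood at 82.0, 101 and 86.0 TPM in tumors and at 142, 142 and 147 TPM in the adjacent cerebella, an order used for these mice throughout. In controls it had 141, 132 and 139 TPM in *Brca2*Δex3-4; *Trp53*+/+ and 151, 132 and 126 TPM in *Brca2*WT; *Trp53*-/- mice. Every tumor was below every other sample, and the other groups overlapped. The log2 fold change between tumors and controls was −0.60 (standard error 0.086, limma adjusted p = 1.03e-04), or 0.658-fold, which is under the fold minimum. Each comparison of tumors with another group gave a similar value, −0.60 against *Brca2*WT; *Trp53*-/- cerebella, −0.61 against *Brca2*Δex3-4; *Trp53*+/+ cerebella and −0.68 against adjacent cerebella (limma adjusted p = 0.00375, 0.00231 and 0.00402). The gene overlaps *Cox4i2* and *Gm32211*, among which the highest value in a sample was 14.3 TPM.

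*Mcl1* (Entrez Gene 17210, chromosome 3 from 95656944 to 95663179) encodes a short-lived pro-survival protein on which many dividing cells depend. It had 103, 112 and 99.6 TPM in tumors, 82.0, 71.8 and 59.2 TPM in adjacent cerebella, 64.8, 56.4 and 64.4 TPM in *Brca2*Δex3-4; *Trp53*+/+ and 62.4, 60.8 and 60.0 TPM in the *Brca2*WT; *Trp53*-/- controls. Tumors lay above all other samples, and the adjacent cerebellum of mouse GB370 lay within the controls. The log2 fold change between tumors and controls was 0.76 (standard error 0.073, limma adjusted p = 5.01e-06), or 1.69-fold, under the fold minimum. The ratio of *Mcl1* to *Bcl2l1* TPM was 1.25, 1.11 and 1.16 in the 3 tumors, 0.579, 0.506 and 0.402 in the adjacent cerebella, and between 0.413 and 0.476 in the 6 controls. *Mcl1* was thus the more abundant of both transcripts in each tumor and the less abundant in each of the other 9 samples. Of the TPM of the pro-survival members, *Mcl1* made up 52.3% ± 1.39 (SD, n = 3) in tumors and 30.0% ± 1.01 (SD, n = 6) in controls.

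**Figure D2:**
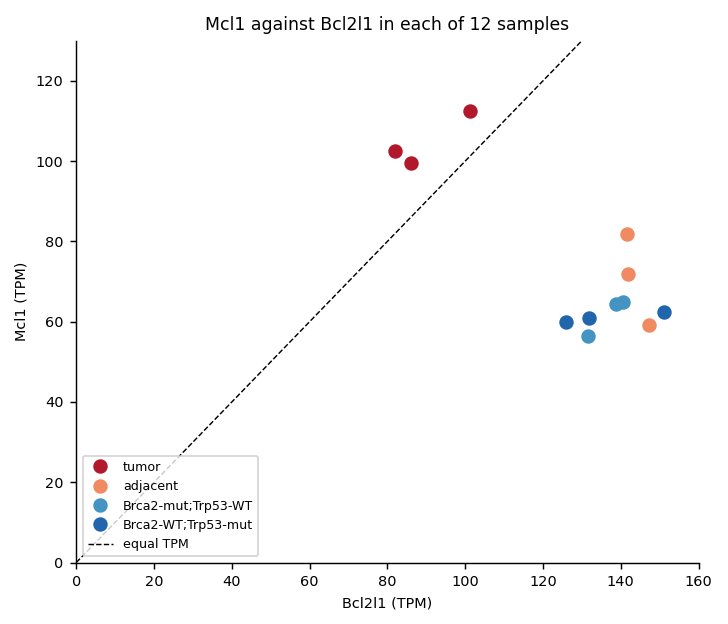
*Mcl1* TPM (y axis) against *Bcl2l1* TPM (x axis) in each of the 12 samples, with both axes linear from 0 and a dashed line at equal TPM. The 3 tumors lie above the line with ratios between 1.11 and 1.25, and the other 9 samples lie below it with ratios up to 0.579.

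*Bcl2* (Entrez Gene 12043, chromosome 1 from 106538176 to 106714290), the founding pro-survival gene, was low in every group. It had 5.55, 5.36 and 6.78 TPM in tumors, 6.50, 6.12 and 6.08 TPM in adjacent cerebella, and between 5.36 and 8.29 TPM in controls with a median of 6.31. The tumors overlapped with both other groups. The log2 fold change between tumors and controls was −0.12, with a 95% interval from −0.43 to 0.20 (limma adjusted p = 0.475), and 0.10 under quantile normalization. *Bcl2* was below 5% of the TPM of the pro-survival members in every sample, from 2.45% to 4.27%. Its gene body overlaps *Mir3473f* and *Gm37053*, among which the highest value in a sample was 138 TPM, far above *Bcl2* itself. The strand setting of the counting is not given in the sources used here, and the part of these genes in the *Bcl2* values was not tested.

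*Bax* (Entrez Gene 12028, chromosome 7 from 45461695 to 45466903), the cytosolic effector that moves to mitochondria on activation, had 215, 179.6 and 169 TPM in tumors. It had 132, 111 and 92.5 TPM in adjacent cerebella, 103, 97.2 and 114 TPM in *Brca2*Δex3-4; *Trp53*+/+ and 108, 107 and 100.4 TPM in the *Brca2*WT; *Trp53*-/- controls. All tumors were higher than all other samples, and the controls of both genotypes overlapped. The log2 fold change between tumors and controls was 0.83 (standard error 0.088, limma adjusted p = 1.09e-05), or 1.78-fold, under the fold minimum.

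*Bak1* (Entrez Gene 12018, chromosome 17 from 27019812 to 27028627), the effector that resides in the mitochondrial membrane, had 50.7, 35.5 and 39.1 TPM in tumors against 26.3, 21.9 and 20.1 TPM in adjacent cerebella. In controls it had 18.1, 17.8 and 21.4 TPM in *Brca2*Δex3-4; *Trp53*+/+ and 17.2, 17.4 and 15.3 TPM in *Brca2*WT; *Trp53*-/- mice. Tumors lay apart from all other samples, with mouse GB344 highest in both tumor and adjacent tissue. *Bak1* rose by 1.17 on the log2 scale between controls and tumors (standard error 0.13, limma adjusted p = 1.61e-05), or 2.25-fold. The gene overlaps *Ggnbp1*, which reached 13.6 TPM.

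*Bid* (Entrez Gene 12122, chromosome 6 from 120893119 to 120917062) encodes a BH3-only protein that links death receptors to mitochondria when caspase 8 cleaves it. It stood at 27.1, 24.2 and 29.2 TPM in tumors, and at 7.22, 7.02 and 3.60 TPM in the adjacent cerebella of the same mice. *Brca2*Δex3-4; *Trp53*+/+ cerebella had 2.91, 3.18 and 2.63 TPM and *Brca2*WT; *Trp53*-/- cerebella had 2.91, 2.07 and 1.64 TPM. Tumors, adjacent cerebella and controls formed 3 levels with no overlap, and the share of all genes with such levels was not counted. *Bid* rose by 2.98 on the log2 scale between controls and tumors (95% interval from 2.62 to 3.35, limma adjusted p = 9.14e-08), the largest change among the members, and the ratio of mean TPM was 10.5. With each sample left out in turn the value stayed between 2.90 and 3.05.

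*Bcl2l11* (Entrez Gene 12125, chromosome 2 from 128126038 to 128162547) encodes BIM, the BH3-only protein that responds to loss of growth factor signals and is a target of FOXO factors. It had 21.8, 21.1 and 19.8 TPM in tumors, the smallest relative spread of the BH3-only members there, and 11.3, 9.62 and 5.47 TPM in adjacent cerebella. In controls it had 5.44, 3.53 and 4.05 TPM in *Brca2*Δex3-4; *Trp53*+/+ and 4.02, 4.88 and 5.04 TPM in *Brca2*WT; *Trp53*-/- mice. Tumors lay above all other samples, and the adjacent cerebellum of mouse GB370 was just above the highest control. *Bcl2l11* rose by 2.01 between controls and tumors (95% interval from 1.71 to 2.30, limma adjusted p = 3.40e-07), with a ratio of mean TPM of 4.65.

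*Pmaip1* (Entrez Gene 58801, chromosome 18 from 66458604 to 66465558) encodes NOXA, a BH3-only protein that binds MCL1 with preference. It had 9.65, 8.32 and 14.3 TPM in tumors against 4.53, 2.74 and 8.93 TPM in adjacent cerebella, with mouse GB370 highest in both tissues. In controls it had 2.01, 4.39 and 3.41 TPM in *Brca2*Δex3-4; *Trp53*+/+ and 4.17, 1.72 and 0.946 TPM in *Brca2*WT; *Trp53*-/- mice. Tumors were above all controls, but the adjacent cerebellum of mouse GB370 was above tumor GB359. *Pmaip1* rose by 1.70 between controls and tumors (95% interval from 0.97 to 2.44, limma adjusted p = 8.98e-04), with a standard error of 0.33 that was the largest of the 10 members.

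*Hrk* (Entrez Gene 12123, chromosome 5 from 118169764 to 118189478), a BH3-only gene expressed mainly in neurons, had 6.96, 10.2 and 16.0 TPM in tumors against 4.88, 9.41 and 5.74 TPM in adjacent cerebella. The 6 controls lay close together, between 3.59 and 4.30 TPM with a median of 3.89. Tumors and adjacent cerebella overlapped, and both groups were above every control. The share of all genes that separate adjacent cerebella from controls in this way was not counted. *Hrk* rose by 1.23 between controls and tumors (standard error 0.20, limma adjusted p = 2.71e-04). Without tumor GB370 the value was 0.95, below the fold minimum.

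*Bbc3* (Entrez Gene 170770, chromosome 7 from 16308398 to 16318334) encodes PUMA, a potent BH3-only protein downstream of p53. It had 24.4, 31.3 and 17.5 TPM in tumors against 19.4, 24.3 and 14.8 TPM in adjacent cerebella, so that mouse GB359 was highest and mouse GB370 lowest in both tissues. *Brca2*Δex3-4; *Trp53*+/+ cerebella had 13.1, 13.7 and 14.8 TPM and *Brca2*WT; *Trp53*-/- cerebella had 18.8, 15.3 and 15.0 TPM. Tumor GB370 lay within the range of the controls, so its tumors and controls overlapped, as did those of *Bcl2*. Of the other 8 members, 7 had every tumor above and 1 every tumor below every control, and such separation was common, since 28.3% of all 16241 tested genes were separated upward, 35.7% downward and 64% in either direction. The log2 fold change between tumors and controls was 0.63 (standard error 0.17, limma adjusted p = 0.00719), under the fold minimum.

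Promoter windows from RefSeq (GRCm38.p6) were searched for motifs of factors known to act on this family, over 250 bases before and 50 bases after each start site, in 14 windows of 9 members. The motifs were picked with the members' promoter sequences known, so their counts are descriptions. The FOXO motif GTAAACA, on either strand, was in a window of *Bcl2l11* and in 1 of *Bbc3*, and in 3.65% of all 32851 windows searched. The E-box CACGTG was in a window of *Bbc3* and in that of *Bax*, and in 7.15% of all windows. The E2F motifs TTTCGCGC, TTTGGCGC, TTTCCCGC or TTTGCCGC were in 1 window of *Bcl2l1* and in 2.26% of all windows. The GLI motif GACCACCCA (0.253% of all windows) and a p53 response element (0.0731%) were in none of the 14 windows of the 9 members searched. The p53 element was a pair of RRRCWWGYYY sequences up to 13 bases apart (R is A or G, W is A or T, Y is C or T). It allowed no mismatch. *Pmaip1*, a known p53 target, was the member without a searched window. Both strands were searched for every motif, and a match describes letters in the window and no binding. The 250 bases before the start site are shown for *Bcl2l11*, the BH3-only gene with the least relative spread among tumors, for *Bbc3*, which shares its FOXO motif and whose groups overlapped, and for *Bax*, the effector without a call. Capitals mark the FOXO motif in *Bcl2l11* and *Bbc3* (in *Bbc3* it reads TGTTTAC, on the opposite strand) and the E-box in *Bax*. The motifs begin 227, 167 and 9 bases before the start site. The windows lie at chr2:128125788-128126037 on the plus strand, chr7:16310011-16310260 on the plus strand and chr7:45466899-45467148 on the minus strand.
Bcl2l11: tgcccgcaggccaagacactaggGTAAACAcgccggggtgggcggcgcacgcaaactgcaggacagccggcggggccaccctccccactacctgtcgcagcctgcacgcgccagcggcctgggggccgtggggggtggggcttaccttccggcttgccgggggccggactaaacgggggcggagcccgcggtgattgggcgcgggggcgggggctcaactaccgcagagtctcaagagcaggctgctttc
Bbc3: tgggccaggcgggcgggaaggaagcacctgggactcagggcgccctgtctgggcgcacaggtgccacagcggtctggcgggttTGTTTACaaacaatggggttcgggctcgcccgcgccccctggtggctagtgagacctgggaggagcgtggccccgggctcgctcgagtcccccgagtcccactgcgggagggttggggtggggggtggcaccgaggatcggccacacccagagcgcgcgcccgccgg
Bax: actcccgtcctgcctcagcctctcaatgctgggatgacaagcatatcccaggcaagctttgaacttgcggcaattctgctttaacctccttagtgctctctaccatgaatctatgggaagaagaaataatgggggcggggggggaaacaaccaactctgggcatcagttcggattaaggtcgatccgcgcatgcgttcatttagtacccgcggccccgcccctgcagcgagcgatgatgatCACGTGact
The FOXO factor *Foxo3* itself was at 34.3 ± 2.83 TPM (SD) in the 3 tumors and 88.3 ± 9.74 TPM (SD) in the 6 controls. Its log2 fold change was −1.34 (limma adjusted p = 7.45e-07). A related gene, *Foxo1*, had a mean of 9.48 TPM in tumors and 13.6 TPM in controls, with overlapping ranges. Both genes were chosen after their values were seen. RNA levels do not measure FOXO activity, and the part of FOXO factors in the value of *Bcl2l11* was not tested.

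Each control genotype on its own gave the same called members. Against *Brca2*WT; *Trp53*-/- cerebella, which share the *Trp53* knockout with the tumors, 5 of 10 members were called higher and 0 lower, where 13.5% of 15970 genes were called higher, 22.3% lower and 35.8% in either direction. The log2 fold changes were 3.13 for *Bid*, 1.96 for *Bcl2l11*, 1.93 for *Pmaip1*, 1.26 for *Bak1* and 1.21 for *Hrk*. *Hrk* was called in 1 and *Pmaip1* in 3 of the 6 fits that left out a sample, and 3 members were called without tumor GB370, mouse GB519 or mouse GB520. Against *Brca2*Δex3-4; *Trp53*+/+ cerebella, which share the *Brca2* deletion, 5 members were called higher and 0 lower, where 14.3% of 15767 genes were called higher, 20.5% lower and 34.8% in either direction. The log2 fold changes were 2.83 for *Bid*, 2.05 for *Bcl2l11*, 1.47 for *Pmaip1*, 1.24 for *Hrk* and 1.08 for *Bak1*. There, *Bak1* was 0.93 without tumor GB344, *Hrk* was called in 1 of 6 such fits, and 3 members were called without mouse GB361 or mouse GB512. *Bbc3* had an adjusted p of 0.0748 against *Brca2*WT; *Trp53*-/- and 0.0198 against *Brca2*Δex3-4; *Trp53*+/+ cerebella by limma. The comparisons share the same 3 tumors, so their likeness is no independent support.

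**Figure D3:**
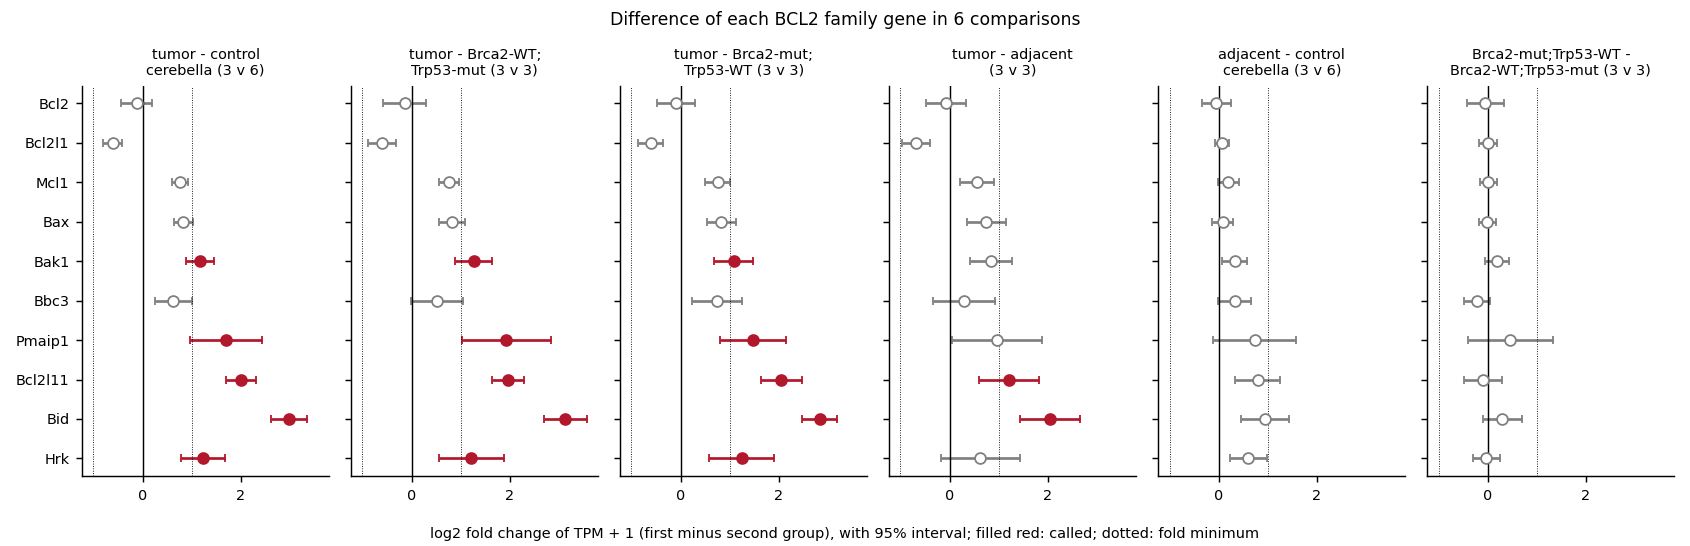
Log2 fold change of TPM + 1 (x axis, group named last subtracted from group named before it) for the 10 members in 6 comparisons, with 95% limma intervals. Filled red points are called, open gray points are not, and dotted lines mark the fold minimum of 1 in either direction. *Bid* and *Bcl2l11* are called in all 4 comparisons of tumors, and no member is called in the last 2 panels.

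Tumor and adjacent cerebellum come from the same 3 mice and the same genotype, and the fit reported here did not pair them. Between them 2 of 10 members were called, *Bid* with a log2 difference of 2.05 (standard error 0.26, limma adjusted p = 0.00103) and *Bcl2l11* with 1.21 (standard error 0.26, limma adjusted p = 0.00831), both higher in tumors. Over all 15845 genes 4.76% were called higher, 18% lower and 22.8% in either direction. The split of all calls depended on the scaling, with 755 higher and 2852 lower as reported, 1441 and 2410 under median-of-ratios scaling and 1603 and 2192 under quantile normalization. *Bak1*, at 0.84 (limma adjusted p = 0.00900), was under the fold minimum and was called under both of those scalings, at 1.04 and 1.07. *Bax* was at 0.75 and *Bcl2l1* at −0.68, with adjusted p of 0.00995 and 0.00402 by limma. The log2 fold changes of *Mcl1* (0.57), *Pmaip1* (0.96), *Hrk* (0.63), *Bbc3* (0.30) and *Bcl2* (−0.074) had limma adjusted p between 0.0175 and 0.739. *Bcl2l11* lost its call in 5 of 6 fits that left out a sample, each except the fit without adjacent cerebellum GB344, and its value lay between 0.94 and 1.40. Without the adjacent cerebella of mice GB344 and GB359, whose progenitor markers were high, *Bid* alone was called, and *Bcl2l11* had a log2 fold change of 1.76 with a limma adjusted p of 0.0122. That fit has 1 adjacent sample, which is assumed to vary like the tumors.

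No member was called between adjacent and control cerebella, where 0.224% of 16091 genes were called higher, 0.0124% lower and 0.236% in either direction. At an unadjusted p under 0.05, 4 members were higher in adjacent cerebella, and 34.5% of all tested genes (5551) passed that limit in either direction. The largest differences were those of *Bid* (0.94, limma adjusted p = 0.0252), *Bcl2l11* (0.79, limma adjusted p = 0.0309), *Pmaip1* (0.74, limma adjusted p = 0.199) and *Hrk* (0.60, limma adjusted p = 0.0398). Without the adjacent cerebellum of mouse GB370, *Bid* (1.21) and *Bcl2l11* (1.07) were called, and in the same fit 586 genes were called in place of 38. With the adjacent cerebellum of mouse GB370 as the only adjacent sample, assumed to vary like the controls, *Bid* was at 0.39, *Bcl2l11* at 0.25, *Hrk* at 0.46 and *Pmaip1* at 1.49, with limma adjusted p between 0.184 and 0.573. The adjacent cerebella of mice GB344 and GB359 had 59.4 and 50.5 TPM of *Atoh1*, the transcription factor that marks granule cell progenitors, against 5.0 TPM in that of mouse GB370, between 119 and 319 TPM in tumors and no more than 0.212 TPM in controls. *Bid*, *Bcl2l11*, *Bak1*, *Bax*, *Mcl1*, *Bbc3* and *Bcl2* were higher in the adjacent cerebella of mice GB344 and GB359 than in that of mouse GB370. *Pmaip1* and *Bcl2l1* had their highest adjacent values in mouse GB370. For *Hrk*, the adjacent cerebellum of mouse GB370 was above that of mouse GB344. Among tumors GB344, GB359 and GB370, *Bcl2l11* had 21.8, 21.1 and 19.8 TPM, whereas *Atoh1* had 119, 244 and 319 TPM. The part of the progenitor and cell division markers in these values was not tested.

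**Figure D4:**
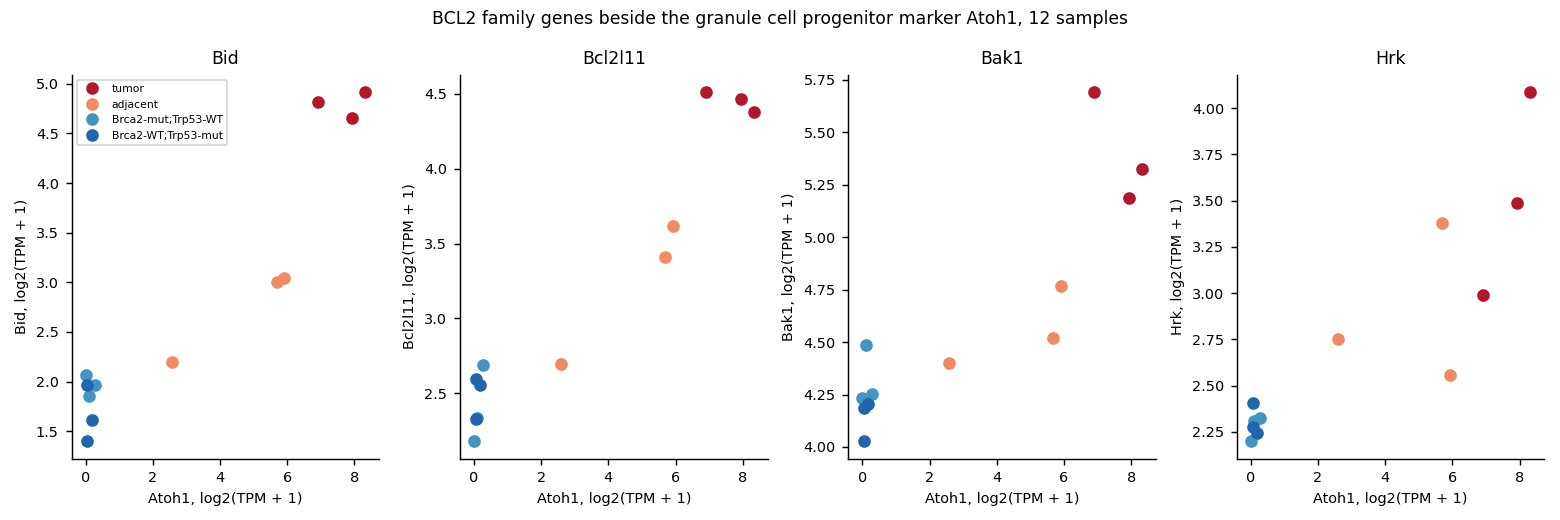
Log2(TPM + 1) of *Bid*, *Bcl2l11*, *Bak1* and *Hrk* (y axes, which do not start at 0) against log2(TPM + 1) of the granule cell progenitor marker *Atoh1* (x axis) in the 12 samples, colored by group. Along the x axis, controls lie at the left with *Atoh1* up to 0.212 TPM, the adjacent cerebella of mice GB344 and GB359 lie between controls and tumors, and the adjacent cerebellum of mouse GB370 lies nearer the controls.

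Between the control genotypes (*Brca2*Δex3-4; *Trp53*+/+ minus *Brca2*WT; *Trp53*-/-) 0 of 10 members were called by limma, and 0 had an unadjusted p under 0.05, a limit that 20.1% of all tested genes passed. In this comparison 0.0128% of 15575 genes were called higher, 0.0449% lower and 0.0578% in either direction. The p53 targets *Bax*, *Bbc3* and *Pmaip1* had log2 fold changes of −0.0040, −0.22 and 0.46 with *Trp53* intact against knocked out, with 95% intervals from −0.18 to 0.17, from −0.48 to 0.045 and from −0.40 to 1.32. The intervals of *Mcl1* (from −0.16 to 0.19) and *Bcl2l1* (from −0.17 to 0.19) were as narrow as that of *Bax*, whereas that of *Pmaip1* leaves room for a fold change past the minimum. The adjusted p of the 10 members ranged from 0.329 (*Bbc3*) to 0.981 (*Bax*). The genotypes differ in both *Brca2* and *Trp53*, whose effects cannot be told apart here. Choroid plexus markers summed to between 4821 and 6276 TPM in *Brca2*WT; *Trp53*-/- and to 1170, 115 and 103 TPM in *Brca2*Δex3-4; *Trp53*+/+ cerebella, and their part in these values was not tested.

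Other genes of the pathway were taken from 8 lists and read against controls, beside the 14.4% and 21.5% of all genes called higher and lower. Of 17 other BCL2 family genes 12 were tested, 4 were called higher and 3 lower, with a median log2 fold change of 0.16. *Bok*, an effector-like relative of *Bax* and *Bak1*, rose by 3.15 (limma adjusted p = 1.76e-07), with 134, 196 and 220.2 TPM in the 3 tumors and between 14.7 and 26.0 TPM in controls. *Bcl2a1b*, a pro-survival gene with near-identical copies whose reads cannot be told apart with certainty, rose by 2.44. Summed TPM of 6 lymphocyte markers was between 7.37 and 10.6 in tumors and between 1.89 and 4.32 in controls, and its part in the value of *Bcl2a1b* was not tested. *Bcl2l15* had a log2 fold change of −3.08. *Bcl2l2*, which encodes the pro-survival protein BCL-W and falls outside the naming rule, was chosen after its values were seen: its level was 29.0 ± 5.64 TPM (SD) in the 3 tumors and 107 ± 1.58 TPM (SD) in the 6 controls. Its log2 fold change was −1.87 (limma adjusted p = 1.16e-07), a larger difference than that of its neighbor in function *Bcl2l1*.

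In the list of apoptosome and caspase genes, 5 of 11 were called higher and 1 lower, with a median of 0.79. *Casp2*, which encodes an initiator caspase, rose by 2.17, and *Endog*, which encodes a mitochondrial nuclease, had a log2 fold change of −1.85. Of 7 genes for IAP proteins and their antagonists, 1 was called higher and 1 lower. *Birc5*, which encodes survivin, a mitotic protein of the IAP family, rose by 4.78 (limma adjusted p = 2.26e-08), and *Xiap*, a direct caspase inhibitor, was at −1.03 on the log2 scale.

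In the death receptor list 3 of 8 tested genes (9 listed) were called higher and 0 lower: *Tnfrsf1a* (1.70), *Ripk1* (1.12) and *Casp8* (1.05), the last of which encodes the protease that activates BID. Of 6 partners of BAX and BAK in the outer mitochondrial membrane, 0 were called higher and 1 lower, *Dnm1l* (−1.02), a fission GTPase. The list of 5 MCL1 turnover genes had 0 called higher and 2 lower, *Fbxw7* (−1.91, limma adjusted p = 5.03e-08) and *Btrc* (−1.37), which encode substrate receptors of ubiquitin ligases that target MCL1 for degradation, while *Huwe1*, another MCL1 ligase, was at 0.49. *Fbxw7* had 18.1, 20.5 and 20.8 TPM in the 3 tumors and between 69.6 and 86.4 TPM in controls, with no overlap. The remaining genes of this list, *Usp9x* and *Trim17*, were not called. *Usp9x* was at 42.8 ± 8.60 TPM (SD) in tumors and 70.3 ± 6.92 TPM in controls, also with no overlap. *Trim17* was at 21.5 ± 4.66 and 17.5 ± 1.12 TPM, with overlap. MCL1 turnover itself was not tested.

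Of 10 transcription regulators of BH3-only genes, 3 were called higher, *E2f1* (4.44), *Mybl2* (4.43) and *Trp53* (1.61), and 1 lower, *Foxo3*. *Trp53* was at 127 ± 3.19 TPM (SD) in the 3 tumors, whose genotype is knockout, at 48.6 ± 1.30 TPM in the 3 *Brca2*WT; *Trp53*-/- cerebella and at 34.8 ± 2.10 TPM where *Trp53* was intact, so its level is no measure of functional p53. Among 12 p53 targets outside the family, 3 were called higher and 3 lower, with a median of −0.11, the same to 2 decimals as over all genes. *Eda2r* rose by 3.03 and *Pidd1* by 2.87, and *Perp* had a log2 fold change of −1.62. The share called higher was above that of all genes in 5 of the 8 lists and below it in the other 3 (IAP proteins, BAX and BAK partners, and MCL1 turnover), so a share above the background was not particular to the members.

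**Figure D5:**
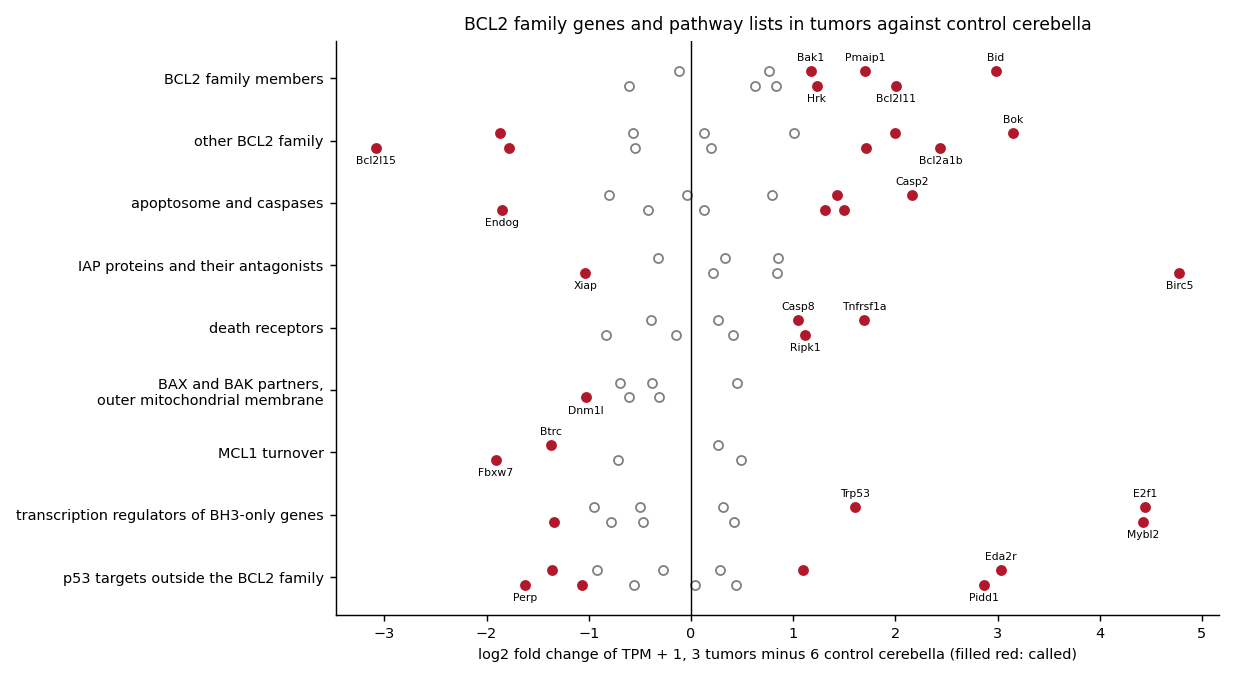
Log2 fold change of TPM + 1 (x axis, 3 tumors minus 6 control cerebella) of the tested genes in the 10 members and 8 pathway lists, without 1 list gene that is not reported here (rows; points are set on 2 lines within a row for legibility). Filled red points are called and open gray points are not, and the names mark called members and the called genes with the largest changes. Called points lie on both sides of 0 in 5 of the 8 lists, from −3.08 (*Bcl2l15*) to 4.78 (*Birc5*).

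The genes most like the members with the largest rise and the largest fall were named by their Pearson correlation of log2(TPM + 1) over the 12 samples, which share 4 groups and are described without a test. For *Bid* they were the ribosomal protein genes *Rps15* (r = 0.994), *Rpl19* (r = 0.994) and *Rpl32* (r = 0.993). *Rpl32* stood at 4054 ± 199.8 TPM (SD) in the 3 tumors, 1231 ± 381 in the 3 adjacent and 687 ± 65.1 in the 6 control cerebella. For *Bcl2l1* they were *Wnk2* (r = 0.988), *Mast1* (r = 0.986) and *Dusp8* (r = 0.986), and *Mast1* had 29.8 ± 7.95, 115 ± 9.07 and 94.4 ± 7.82 TPM in these groups.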

How the data were processed

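RNA sequencing libraries of 12 samples were analysed from deposited TPM values. The authors quantified reads with Salmon 0.8.1 (genome build mm10, per the labels and methods) against UCSC knownGene transcripts and brought them to gene level with tximport. The TPM the authors deposited cover 24091 genes, of which 2603 are at 0 in every sample, and sum to between 999793 and 999876 per sample. Counts were not used here, so depth is unknown and no counting error is given. A short gene, *Mir6236*, took between 4.25% and 11.5% of the TPM. Its share moves every other TPM value, and rescaling without it was an alternative.

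Testing was limited to genes reaching 1 TPM in 3 or more of the samples compared. They were tested on log2(TPM + 1) with limma 3.58.1 (lmFit, eBayes with a trend) in R 4.3.3 and Benjamini-Hochberg adjustment over all tested genes, with calls at adjusted p under 0.01 where the log2 fold change also passed 1 in either direction, the thresholds of the study's own count test. All 10 members passed the filter in each of the 6 comparisons. The fits used only the groups compared. In simulated data with 200 genes changed 4-fold up or down (2 on the log2 scale), the model recovered 189 among 16241 genes for tumors against controls and 137 among 15845 for tumors against adjacent cerebella, with 0 and 2 false calls. The changed genes were drawn above a minimum mean level, so recovery of lower genes was not measured. Noise was drawn for each gene on its own. Far fewer genes were changed than were called in the data. Replicates are separate mice.

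Tumor and adjacent samples came from the same mice, but the fit reported did not pair them. Their deviations from the group means correlated at 0.249, 0.176 and 0.152 for mice GB344, GB359 and GB370. Alternatives changed 1 choice at a time, except the thresholds, where the p limit and the fold minimum were relaxed together. They were the pseudocount (0.1 or 0.01), the filter (none, or at least 5 TPM), the scaling (median-of-ratios, quantile, or TPM without *Mir6236*), the trend, all 4 groups in a fit, the thresholds, the mouse as a block, and each sample left out. The fit without the adjacent cerebella of mice GB344 and GB359 was added after seeing the data.

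The members and lists were chosen with earlier results of these data known. Named genes are the 10 members, from each list the 3 called genes with the largest absolute change between tumors and controls, list genes called between the control genotypes, of which there were 0, and the 3 genes most correlated with the members that rose and fell most. *Bcl2l2*, *Foxo1*, *Foxo3*, *Huwe1*, *Usp9x* and *Trim17* were named after their values were seen. The values of 1 list gene that the rule names are not reported here. The other steps used Python 3.11.15, pandas 2.3.3 and matplotlib 3.10.9.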

Additional observations from a re-analysis of the deposited data

How the results depend on the processing

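Against the 6 controls the same 5 members were called under every planned setting run except adjusted p under 0.05 without a fold minimum, which called 9, and the fit without tumor GB370, which called 4. That looser rule, which changes both limits at once, called 8, 9, 6 and 3 members against *Brca2*WT; *Trp53*-/-, *Brca2*Δex3-4; *Trp53*+/+ and adjacent cerebella and between adjacent and control cerebella, and 11573, 10478, 10001, 7980, 2524 and 71 of all genes in the 6 comparisons in the order of the report. With no filter, *Hrk* lost its call against each control genotype (limma adjusted p = 0.0129 and 0.0125), and *Bcl2l11* lost it against adjacent cerebella, where 1 member remained. Without the adjacent cerebella of mice GB344 and GB359, 1 member and 1098 genes were called there, and 15 genes between adjacent and control cerebella. The latter count was 4 with no filter, 63 under median-of-ratios scaling (52 higher, 11 lower), 59 under quantile normalization (41 higher, 18 lower), 58 without *Mir6236* and 10 without a trend. Between control genotypes it was 9 as reported, 2 with a pseudocount of 0.01, 4 without *Mir6236*, 21 with all 4 groups fitted and 3 under no filter, the 5 TPM minimum, either scaling or no trend. Paired by mouse, the fit with a replicate block called the same 2 members and 3542 genes, against 3607 unpaired, and changed no other call of a member.

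Values near 0 changed sign. *Bcl2* was 0.10, 0.13, 0.076 and 0.32 under quantile normalization in the 4 tumor comparisons, 0.0067 and 0.11 under median-of-ratios scaling against *Brca2*WT; *Trp53*-/- and adjacent cerebella, and 0.050 and 0.049 under median-of-ratios and quantile scaling between genotypes. There, median-of-ratios and quantile values were 0.11 and 0.025 for *Bax* (0.013 without *Mir6236*), 0.00080 and 0.0090 for *Bcl2l11* and 0.062 and 0.089 for *Hrk*. Between adjacent and control cerebella, *Bcl2l1* and *Bax* were −0.024 and −0.017 under median-of-ratios scaling, and without mice GB344 and GB359 *Mcl1* was −0.051, *Bax* −0.18 and *Bbc3* −0.019. Without *Mir6236*, summed TPM was 99.99 for BH3-only members in tumors (100.3 under median-of-ratios scaling) and 31.5 in controls, 235.8 for pro-survival members in adjacent cerebella (203 under median-of-ratios scaling) and 223 in controls, and 134 for effectors in controls. The cause of the other changes was not tested.

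With each sample left out, called members ranged from 4 to 5, 3 to 5, 3 to 4, 1 to 2, 0 to 2 and 0 to 0 in the 6 comparisons, and all genes called from 5641 to 5913, 5115 to 5728, 4866 to 5501, 2377 to 3482, 0 to 586 and 4 to 29. The 586 were without adjacent cerebellum GB370, and the 2377 without adjacent cerebellum GB359. *Bcl2* ranged from −0.27 to 0.0036 against *Brca2*WT; *Trp53*-/- and from −0.089 to 0.020 between adjacent and control cerebella, where *Bax* ranged from −0.045 to 0.21. Between genotypes the ranges were −0.18 to 0.10 for *Bcl2*, −0.042 to 0.087 for *Bcl2l1*, −0.020 to 0.079 for *Mcl1*, −0.068 to 0.048 for *Bax*, −0.24 to 0.018 for *Bcl2l11* and −0.063 to 0.020 for *Hrk*. TPM keeps no depth, so the precision of low members such as *Pmaip1* is known only from 3 mice a group.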
